A study of Mus musculus with 20 samples.

Results

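The immediate-early and stress response genes examined here are 37 genes chosen by symbol for their known early response to signals, of 37620 genes with read counts, and all 37 matched a gene. The list was chosen with earlier results of these data known. Shares of all genes beside its counts are therefore a description and no test of the list. The genes fall into 8 subgroups: 8 AP-1 and related bZIP factors, 3 Egr genes, 3 Nr4a receptors, 5 Dusp phosphatases, 4 Klf factors, 5 feedback inhibitors, 3 Ier genes and 6 growth and arrest genes. Their levels were measured by RNA sequencing in bulk bone marrow of 20 mice, 5 in each of 4 groups: U2AF1(WT) with vehicle, U2AF1(WT) with sudemycin D6, U2AF1(S34F) with vehicle and U2AF1(S34F) with sudemycin D6. In all 4 groups, irradiated wild-type recipient mice carried transplanted marrow of transgenic donors, which was left to engraft before induction, and doxycycline chow (625 ppm) switched on the rtTA-dependent transgene for 7 days. Vehicle or sudemycin D6, which targets SF3B1 in the spliceosome, was infused through a jugular catheter over 5 of those days. Per the study's methods, mice were killed for analysis the day after the last infusion. The levels therefore do not show the first minutes or hours after the drug. U2AF1 recognises the 3′ splice site, and U2AF1(S34F) is the mutant form found in myeloid neoplasms. The U2AF1(WT) mice also overexpress U2AF1, so a difference between genotypes is one between 2 transgenes and not between mutant and unmodified marrow. Donor marrow of several mice was pooled before transplantation, and each recipient also keeps its own stromal cells. Donors were aged 8 to 12 weeks and recipients 6 to 12 weeks, and each recipient received marrow of its own sex.

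Immediate-early genes are transcribed within minutes of a signal, without new protein synthesis, from promoters on which serum response factor, CREB and NF-kB act downstream of MAP kinases and other pathways. Their products are AP-1, Egr, Nr4a and Klf transcription factors, and inhibitors such as Dusp phosphatases and Zfp36 proteins that shut the signal or destroy the messages again. The messages are short-lived, so their level follows recent transcription closely. In marrow they are known to respond to cytokines, adhesion, inflammation and the handling of cells.

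Gene counts per mouse ran from 41145892 to 62138138 with a median of 51836276. The 9 neutrophil lineage markers, among them *S100a9*, *Ltf* and *Ngp*, were present in every mouse, and so were monocyte, erythroid, B cell, T and NK cell, megakaryocyte and stromal markers, with none at 0 in any mouse. *U2af1* was at 36.1 ± 1.39 CPM (counts scaled to a common library size, mean ± SD, n = 5) in vehicle-treated and 42.1 ± 3.73 in sudemycin-treated U2AF1(WT) mice. In U2AF1(S34F) mice it was at 51.1 ± 2.98 and 55.2 ± 3.26. Gene counts do not tell the mutant base from the normal one, so this level does not check the genotype label. *Xist*, transcribed from the inactive X chromosome, had 39145 to 78640 reads in each U2AF1(WT) mouse and 1 to 8 in each U2AF1(S34F) mouse, whereas 4 Y-linked genes together had 0 to 4 and 10270 to 15034. Genotype and the sex of the marrow therefore cannot be told apart in any comparison of genotypes below. The labels name no batch.

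The promoters shown here are those of 7 members on which the results turn, so that the letters by which early-response factors are known to bind can be seen beside the levels. They run from 250 bases before to 50 after the start in the RefSeq annotation of GRCm38.p6, a later build than mm9, the one used for the reads, and RefSeq promoters matched 31 of the 37 members (not *Ier2*, *Myc*, *Dusp4*, *Egr3*, *Egr1* or *Klf10*). Capitals mark a cAMP response element (CRE, TGACGTCA) or its short form (TGACG), an Egr site (GCGNGGGCG), a TATA box (TATAAA) or the CArG box, on either strand, and a CRE holds short forms within it.
Fos (chr12:85473640-85473939, + strand): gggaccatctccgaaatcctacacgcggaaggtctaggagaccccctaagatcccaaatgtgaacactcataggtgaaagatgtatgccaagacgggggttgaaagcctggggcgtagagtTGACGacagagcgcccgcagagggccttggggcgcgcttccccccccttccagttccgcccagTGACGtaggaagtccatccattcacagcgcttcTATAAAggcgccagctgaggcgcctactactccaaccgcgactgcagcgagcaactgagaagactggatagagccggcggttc
Fosb (chr7:19309996-19310295, - strand): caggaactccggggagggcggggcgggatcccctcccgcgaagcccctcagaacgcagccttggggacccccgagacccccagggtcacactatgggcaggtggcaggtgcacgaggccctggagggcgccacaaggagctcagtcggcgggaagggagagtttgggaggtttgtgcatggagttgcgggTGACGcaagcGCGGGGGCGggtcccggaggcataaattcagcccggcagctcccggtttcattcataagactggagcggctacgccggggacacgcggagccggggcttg
Atf3 (chr1:191183284-191183583, - strand): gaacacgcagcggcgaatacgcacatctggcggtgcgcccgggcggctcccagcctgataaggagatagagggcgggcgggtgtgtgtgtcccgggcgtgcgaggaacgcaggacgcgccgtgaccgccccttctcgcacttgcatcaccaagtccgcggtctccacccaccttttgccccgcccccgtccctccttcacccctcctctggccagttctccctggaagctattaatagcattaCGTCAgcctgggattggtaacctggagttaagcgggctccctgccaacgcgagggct
Nr4a1 (chr15:101266596-101266895, + strand): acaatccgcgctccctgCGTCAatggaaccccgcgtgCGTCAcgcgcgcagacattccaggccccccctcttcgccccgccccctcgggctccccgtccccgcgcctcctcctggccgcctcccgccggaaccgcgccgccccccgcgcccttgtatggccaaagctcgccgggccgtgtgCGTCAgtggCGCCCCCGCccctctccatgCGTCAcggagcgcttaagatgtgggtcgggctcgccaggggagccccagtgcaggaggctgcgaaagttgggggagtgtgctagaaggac
Dusp1 (chr17:26508423-26508722, - strand): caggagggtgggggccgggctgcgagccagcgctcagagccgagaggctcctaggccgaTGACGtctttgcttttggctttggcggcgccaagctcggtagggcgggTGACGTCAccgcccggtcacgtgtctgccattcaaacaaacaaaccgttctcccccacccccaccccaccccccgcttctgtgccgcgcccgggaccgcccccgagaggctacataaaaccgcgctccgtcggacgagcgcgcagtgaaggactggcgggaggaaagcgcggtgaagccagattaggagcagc
Zfp36 (chr7:28379179-28379478, - strand): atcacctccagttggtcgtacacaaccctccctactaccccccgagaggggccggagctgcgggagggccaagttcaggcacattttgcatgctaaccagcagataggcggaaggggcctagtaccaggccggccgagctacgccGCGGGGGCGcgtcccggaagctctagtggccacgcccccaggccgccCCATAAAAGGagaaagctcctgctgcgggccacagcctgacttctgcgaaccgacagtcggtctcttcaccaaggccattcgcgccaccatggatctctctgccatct
Btg2 (chr1:134079106-134079405, - strand): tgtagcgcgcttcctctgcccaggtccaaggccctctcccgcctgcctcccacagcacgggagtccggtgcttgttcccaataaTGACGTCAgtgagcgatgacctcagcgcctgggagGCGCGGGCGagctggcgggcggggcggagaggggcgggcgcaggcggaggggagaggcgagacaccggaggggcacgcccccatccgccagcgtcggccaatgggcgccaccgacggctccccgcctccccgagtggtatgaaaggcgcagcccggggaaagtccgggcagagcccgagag
*Fos* has short CREs beginning 129 and 66 bases before its start and a TATA box 33 bases before it. *Dusp1* and *Btg2* each have a whole CRE, and *Btg2*, *Fosb*, *Nr4a1* and *Zfp36* each have an Egr site. The CArG box, at which serum response factor binds, lies 58 bases before the start of *Zfp36* and was also found in *Dusp5* and *Egr2*. *Atf3* has 1 short CRE. Of the 31 members, 19 (61.3%) held the short CRE against 23.0% of 27025 genes with a promoter of this length, 4 (12.9%) the whole CRE against 2.03%, and 11 (35.5%) the Egr site against 6.27%. The CArG box was in 3 (9.68%) against 1.81%, the NF-kB site in 3 (9.68%) against 1.89%, the TATA box in 7 (22.6%) against 15.7%, and the AP-1 site TGANTCA in 3 (9.68%) against 8.97%. A match of letters is a description and shows no binding, and sites outside this stretch were not searched in any gene.

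Most of the 37 genes were lower in U2AF1(S34F) than in U2AF1(WT) marrow, and some were lower where sudemycin D6 was given. The summed level of all 37 had a median of 7850.0 CPM in vehicle-treated U2AF1(WT) mice, with a range of 5191 to 9699.9 CPM, and of 4810.3 CPM in sudemycin-treated ones, with a range of 4333 to 5456 CPM. In U2AF1(S34F) mice it was 2736 CPM (2393 to 3268) under vehicle and 2349 CPM (2193 to 2495) under sudemycin D6. Every U2AF1(WT) mouse thus lay above every U2AF1(S34F) mouse, while within each genotype the ranges of treated and untreated mice overlapped. The group means ran in the order U2AF1(WT) vehicle, U2AF1(WT) sudemycin, U2AF1(S34F) vehicle, U2AF1(S34F) sudemycin for 26 of 37 members, and 33 members had their highest mean in vehicle-treated U2AF1(WT) mice. In bulk marrow, fewer cells of a type and less RNA per cell cannot be told apart.

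**Figure D1:**
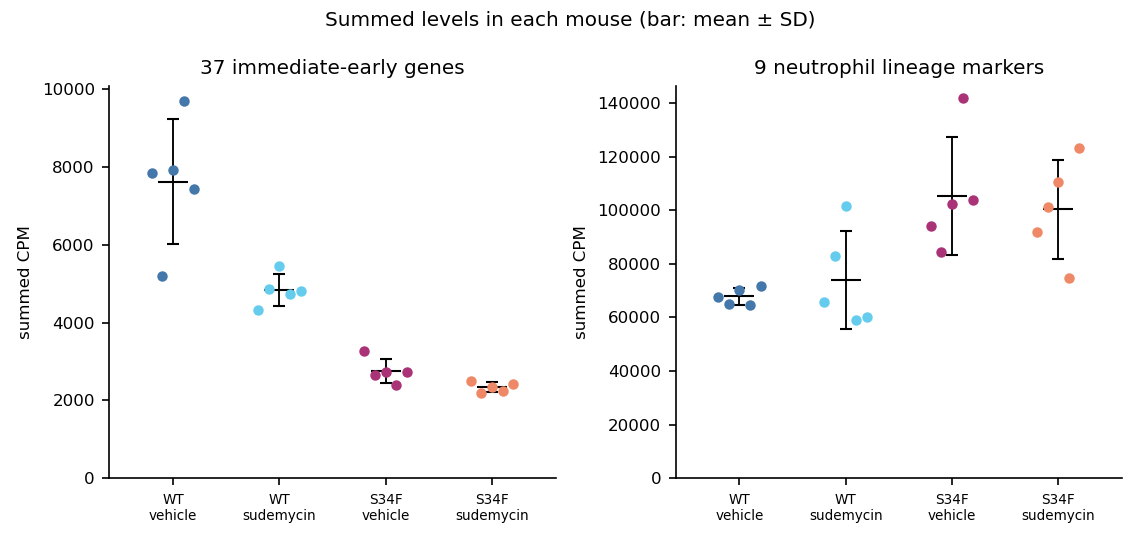
Summed CPM of the 37 immediate-early genes (left) and of 9 neutrophil lineage markers (right) in each of 20 mice, with 5 mice per group and bars for mean ± SD. The summed immediate-early level of U2AF1(WT) mice is 4333 CPM or more and that of U2AF1(S34F) mice 3268 CPM or less, while the neutrophil markers are higher in most U2AF1(S34F) mice.

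In edgeR's quasi-likelihood test with Benjamini-Hochberg adjustment at FDR<10%, 34 of 37 members were lower and 0 higher in vehicle-treated U2AF1(S34F) than in vehicle-treated U2AF1(WT) mice, where 19.8% of all genes tested were called lower. No member was higher in DESeq2 or at an unadjusted p under 0.05 (0 in each). The groups did not overlap for 32 members, all lower, against 10.2% of all genes lower and 9.34% higher without overlap, and the median log2 fold change of the members was -1.41 against 0.002 for all genes. Under sudemycin D6, 31 members were lower and 0 higher in U2AF1(S34F) mice (19.6% of all genes lower), 24 without overlap (8.32% of all genes), with a median of -1.16 against -0.027, and again 0 were higher in DESeq2 or at an unadjusted p under 0.05. *Dusp4*, *Dusp6* and *Gadd45b* were not called under vehicle, and *Dusp5*, *Dusp6*, *Klf4*, *Klf10*, *Nfkbia* and *Myc* were not called under sudemycin D6.

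Sudemycin D6 lowered 15 of 37 members and raised 0 in U2AF1(WT) mice, where 1.89% of all genes tested were called lower and 1.18% higher, and DESeq2 called 1 member, *Dusp6*, higher, with 1 higher at an unadjusted p under 0.05. Of the members, 14 did not overlap between the groups, all of them lower, against 2.63% of all genes lower and 1.64% higher without overlap, and the median log2 fold change was -0.59 against 0.004. In U2AF1(S34F) mice the drug lowered 11 members and raised 1, *Zfp36l1*, in edgeR (2 raised in DESeq2, *Zfp36l1* and *Nfkbia*), where 5.85% of all genes were called lower and 4.94% higher. There 8 members did not overlap (3.61% of all genes), with a median of -0.31 against -0.009. In both genotypes the drug lowered 4 members, *Egr1*, *Egr2*, *Btg2* and *Ier3*. The share of all genes lowered in both, or in a single genotype alone, is not given here. Counts of members called in both or in a single genotype are therefore a description. With genotype as a covariate, the drug lowered 23 members and raised 1, *Zfp36l1* (7.22% of all genes lower and 7.78% higher). Against vehicle-treated U2AF1(WT) mice, sudemycin-treated U2AF1(S34F) mice had 35 members lower and 0 higher (25.1% of all genes lower), 31 without overlap (12.2%), with a median of -1.81 against -0.003, and 0 were higher in DESeq2 or at an unadjusted p under 0.05. Mouse 2 of the vehicle-treated U2AF1(WT) group was the lowest of its group for 24 members, and without it the drug comparison in U2AF1(WT) mice called 21 members lower. A single fit of all 20 mice called 18 members lower and 1 higher in U2AF1(WT) mice, and 7 lower and 0 higher in U2AF1(S34F) mice.

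**Figure D2:**
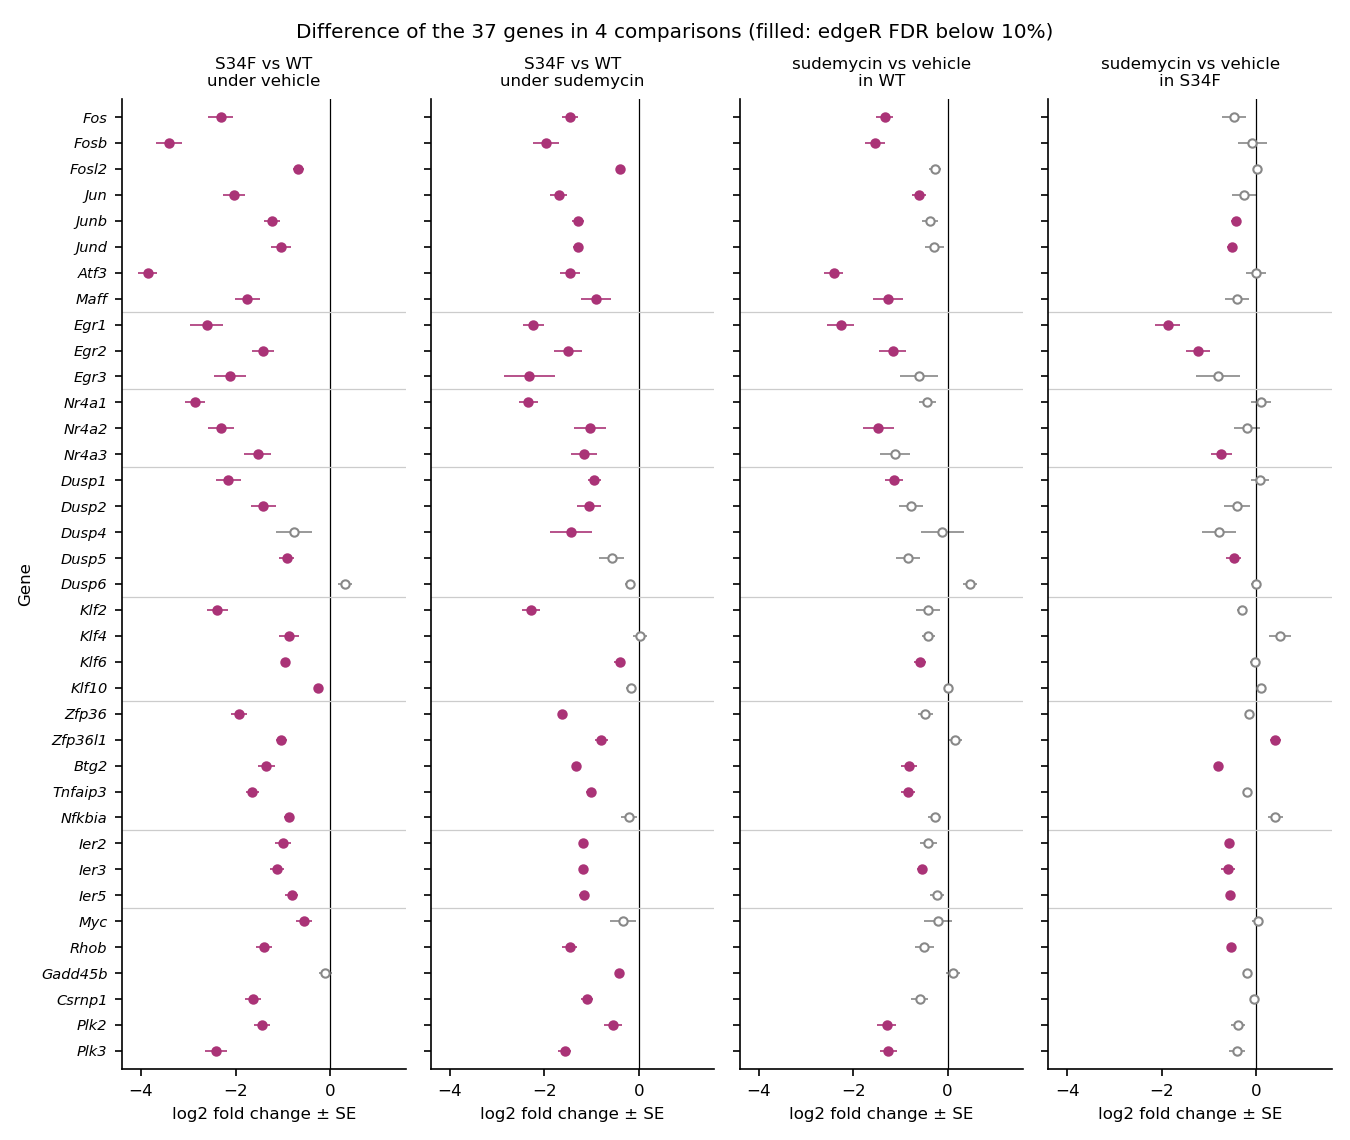
Log2 fold change with its standard error (horizontal axis) of the 37 genes (vertical axis, grouped by subgroup) in 4 comparisons of 5 against 5 mice, filled where edgeR gave FDR<10%. Nearly all points of the genotype comparisons lie left of 0, with 34 and 31 filled, and the drug comparisons have 15 and 12 filled.

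AP-1 is a dimer of Fos and Jun proteins, and all 8 genes of the subgroup were lower in U2AF1(S34F) mice under vehicle and under sudemycin D6. The drug lowered 5 of them in U2AF1(WT) mice (*Fos*, *Fosb*, *Jun*, *Atf3* and *Maff*) and 2 in U2AF1(S34F) mice (*Junb* and *Jund*). Differences are given as log2 fold changes, and values in the order of mouse numbers, which were 1, 2, 3, 4 and 5 for U2AF1(WT) vehicle, 6, 8, 9, 10 and 12 for U2AF1(WT) sudemycin, 1, 3, 5, 7 and 11 for U2AF1(S34F) vehicle, and 2, 6, 9, 10 and 12 for U2AF1(S34F) sudemycin. *Fos* was at 1122, 542, 1085, 1176 and 953 CPM in vehicle-treated U2AF1(WT) mice and at 396, 343, 398, 417 and 387 CPM in sudemycin-treated ones. *Fos* in U2AF1(S34F) mice was at 312, 199, 158, 129.6 and 194 CPM under vehicle and at 208, 95.6, 131, 169 and 123 CPM under sudemycin D6. The first 2 groups did not overlap, both lay above all U2AF1(S34F) mice, and the treated and untreated U2AF1(S34F) mice overlapped. *Fos*, the founding member of the class, was lower in U2AF1(S34F) mice under vehicle by a log2 fold change of -2.32 (SE 0.27, FDR 0.000245) and with the drug in U2AF1(WT) mice by a log2 fold change of -1.33 (SE 0.18, FDR 0.00217), and its drug difference in U2AF1(S34F) mice was -0.47 (SE 0.25, FDR 0.304). Per kilobase of exon it was the highest of the 37 in vehicle-treated U2AF1(WT) mice, at 415 CPM per kb, and *Dusp4* the lowest at 0.296.

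*Jun* was at 565, 406, 533, 733 and 534 CPM in vehicle-treated U2AF1(WT) mice and at 301, 405, 435, 332 and 355 CPM in sudemycin-treated ones. *Jun* in U2AF1(S34F) mice was at 200.3, 153, 146, 80.0 and 107 CPM under vehicle and at 165, 75.5, 122, 105 and 112 CPM under sudemycin D6. Treated and untreated U2AF1(WT) mice overlapped, and all of them lay above all U2AF1(S34F) mice. *Jun*, the partner of Fos proteins, differed between genotypes under vehicle by a log2 fold change of -2.03 (SE 0.24, FDR 0.000235) and with the drug in U2AF1(WT) mice by a log2 fold change of -0.60 (SE 0.15, FDR 0.0688). That drug call was lost without any 1 of vehicle-treated mice 1, 3, 4 and 5 and sudemycin-treated mice 6, 8, 10 and 12 (FDR 0.101 to 0.186), and in the single fit of all mice (FDR 0.145). *Junb* was at 544, 352, 473, 695 and 581 CPM in vehicle-treated U2AF1(WT) mice and at 362, 343, 519, 445 and 369.6 CPM in sudemycin-treated ones. *Junb* in U2AF1(S34F) mice was at 259, 246, 216, 173 and 254 CPM under vehicle and at 176, 192, 147, 184 and 159 CPM under sudemycin D6. Untreated U2AF1(WT) mice 2 and 3 lay within the treated range, the U2AF1(S34F) groups also overlapped, and all U2AF1(S34F) mice lay below all U2AF1(WT) mice. *Junb*, a Jun protein that often opposes *Jun*, was lower with the drug in U2AF1(S34F) mice by a log2 fold change of -0.43 (SE 0.11, FDR 0.0441), a call lost without vehicle-treated U2AF1(S34F) mouse 1 (FDR 0.104) and in the single fit of all mice (FDR 0.153). It was lower in U2AF1(S34F) mice under vehicle by a log2 fold change of -1.22 (SE 0.17, FDR 0.000322).

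*Fosb* was at 88.2, 43.2, 87.4, 91.9 and 60.4 CPM in vehicle-treated U2AF1(WT) mice and at 29.1, 26.5, 22.0, 31.4 and 19.6 CPM in sudemycin-treated ones. *Fosb* in U2AF1(S34F) mice was at 10.3, 8.11, 5.68, 5.04 and 6.33 CPM under vehicle and at 12.01, 3.53, 6.30, 7.49 and 4.46 CPM under sudemycin D6. *Fosb*, another Fos protein, was added to the genes shown mouse by mouse after its values were seen. Every vehicle-treated U2AF1(WT) mouse was above every sudemycin-treated one, and the U2AF1(S34F) groups overlapped each other but not the U2AF1(WT) groups. It was lower in U2AF1(S34F) mice under vehicle by a log2 fold change of -3.40 (SE 0.27, FDR 3.12e-05), and the drug difference was -1.53 (SE 0.21, FDR 0.00273) in U2AF1(WT) mice and -0.09 (SE 0.30, FDR 0.903) in U2AF1(S34F) mice. Of the remaining AP-1 genes, *Jund* was lower with the drug in U2AF1(S34F) mice by a log2 fold change of -0.52 (SE 0.10, FDR 0.0152), with FDR 0.127 in the single fit of all mice, and *Maff*, a small Maf protein, in U2AF1(WT) mice by a log2 fold change of -1.26 (SE 0.32, FDR 0.069). *Maff* lost that call without any 1 of vehicle-treated mice 1, 3 and 4 and sudemycin-treated mice 6, 10 and 12 (FDR 0.102 to 0.211). It lost the genotype call under sudemycin D6 without treated U2AF1(WT) mouse 8 or treated U2AF1(S34F) mouse 6 or 10 (FDR 0.11 to 0.122). *Fosl2* showed the smallest genotype difference of the subgroup, -0.67 (SE 0.13, FDR 0.00182) under vehicle. In the annotation, exons of BC042782 overlap 7.28% of the exon length of *Jun* and exons of Gm11175 overlap 18.9% of that of *Jund*, on the opposite strand, and whether the counting used strand is not given in the sources used here.

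**Figure D3:**
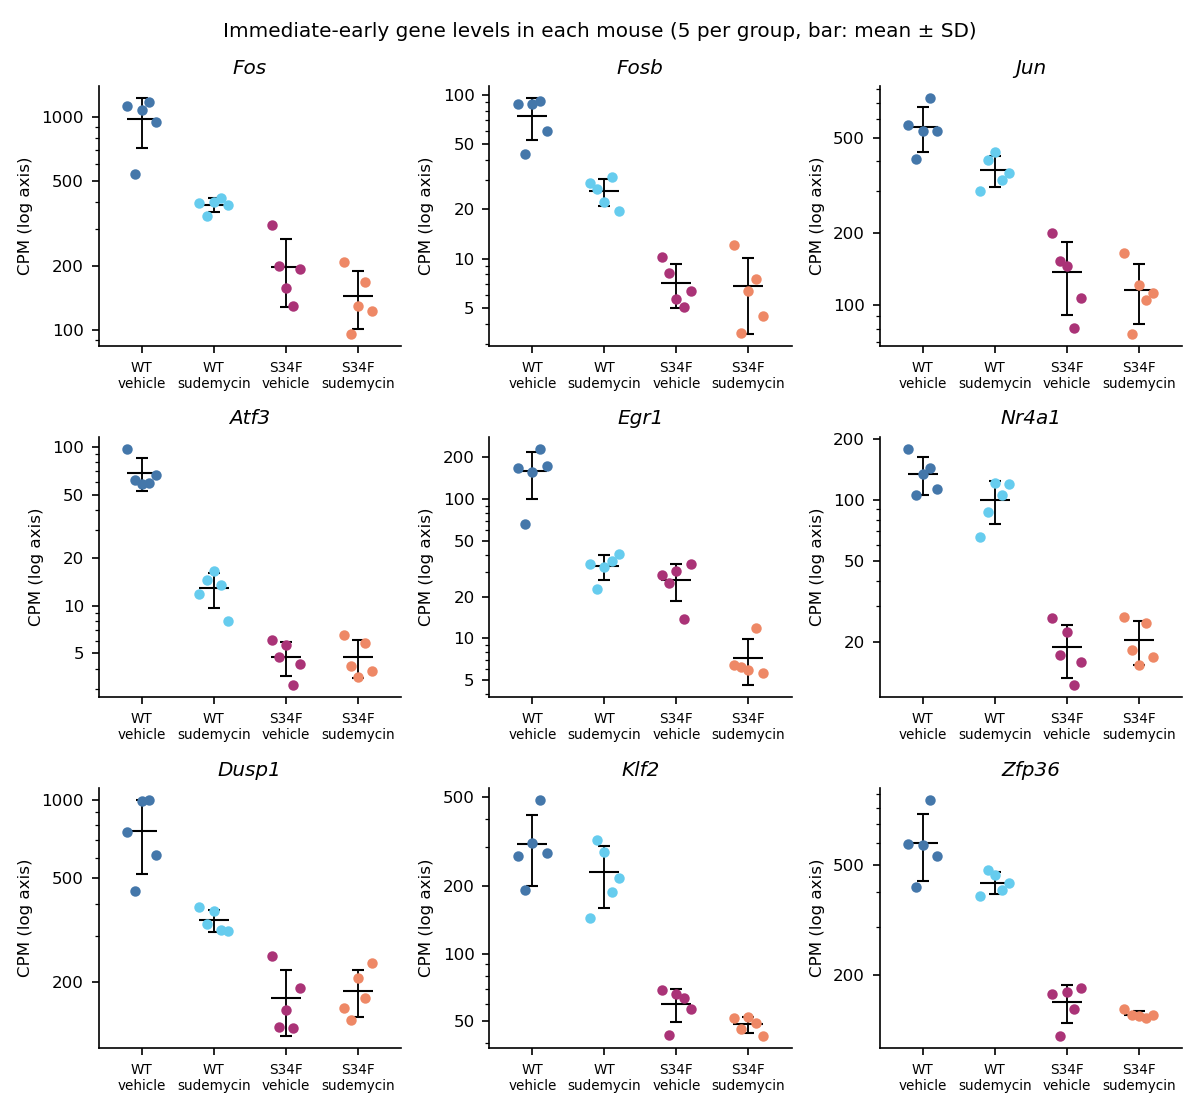
CPM of 9 members in each mouse on log axes, with 5 mice per group and bars for mean ± SD. For *Atf3*, *Fosb*, *Fos* and *Dusp1* the 2 U2AF1(WT) groups are apart while the 2 U2AF1(S34F) groups overlap, and for *Egr1* treated and untreated mice are apart in both genotypes.

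*Atf3*, a bZIP factor induced by stress that acts mostly as a repressor, was the 1 member for which edgeR called a difference between the genotypes in the response to the drug. *Atf3* was at 97.0, 61.4, 58.4, 59.2 and 66.7 CPM in vehicle-treated U2AF1(WT) mice and at 11.8, 14.5, 16.6, 13.5 and 7.98 CPM in sudemycin-treated ones. *Atf3* in U2AF1(S34F) mice was at 6.07, 4.72, 5.62, 3.14 and 4.30 CPM under vehicle and at 6.53, 4.17, 3.54, 5.78 and 3.88 CPM under sudemycin D6. Vehicle-treated U2AF1(WT) mice lay above all others, sudemycin-treated U2AF1(WT) mice lay above all U2AF1(S34F) mice, and the 2 U2AF1(S34F) groups overlapped. The drug difference was -2.41 (SE 0.20, FDR 6.07e-05) in U2AF1(WT) mice and -0.01 (SE 0.21, FDR 0.98) in U2AF1(S34F) mice. In edgeR's fit of all 20 mice, the interaction term was a log2 difference of 2.38 (SE 0.30, FDR 0.000994), and it stayed between 2.22 and 2.52 and past the threshold without any 1 mouse. The genotype difference of *Atf3* under vehicle, -3.85 (SE 0.20, FDR 4.43e-07), was the largest of the members, and under sudemycin D6 it was -1.46 (SE 0.21, FDR 0.000657). Of all genes, 0.013% had a higher interaction at FDR<10%, the other being *Gla*, and 0 of 37 members had a lower one in edgeR or DESeq2. At an unadjusted p under 0.05 in edgeR, 12 members had a higher and 1 a lower interaction. The share of all genes at that threshold is not given here, so these counts are a description. The median interaction of the members was 0.32 against -0.035 for all genes. DESeq2 called 4 members higher, *Atf3*, *Fosb*, *Dusp1* and *Plk2*, where it called 94 of 15280 genes higher. For the 11 members called lower with the drug in U2AF1(WT) mice alone and the 7 called in U2AF1(S34F) mice alone, edgeR thus called the difference between genotypes for *Atf3* alone. Without vehicle-treated U2AF1(S34F) mouse 5, *Klf4* also passed (FDR 0.0762).

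**Figure D4:**
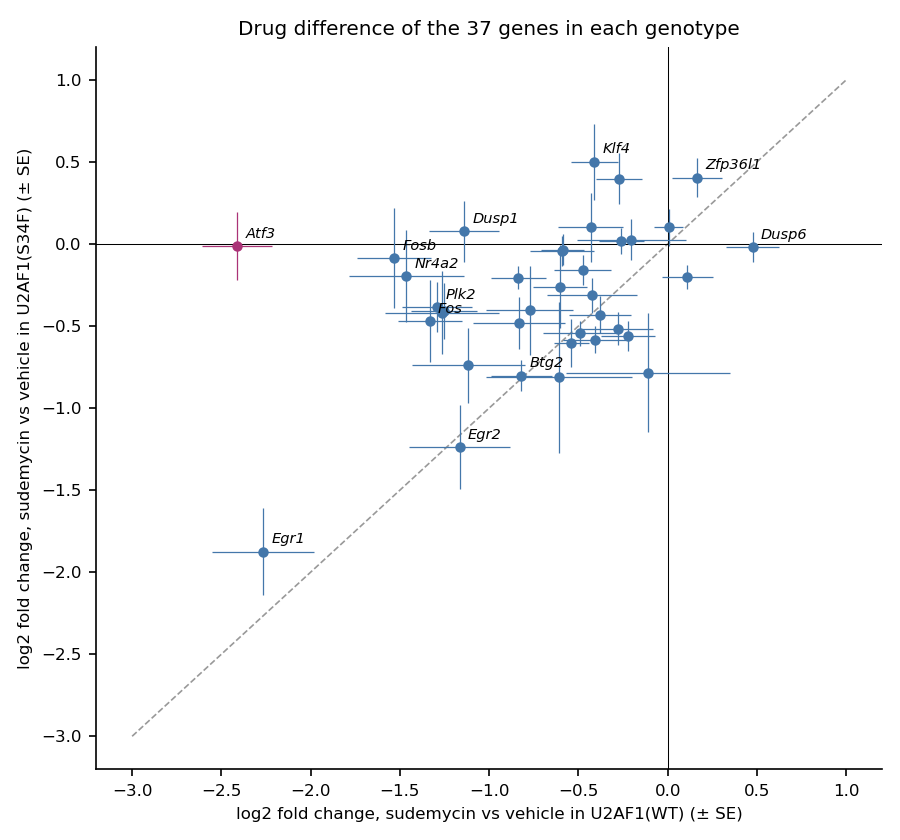
Log2 fold change with sudemycin D6 in U2AF1(WT) mice (horizontal) and in U2AF1(S34F) mice (vertical) for the 37 genes, with standard errors as bars and a dashed line of equal change. *Atf3* lies at -2.41 and -0.01, away from the line, and *Egr1*, *Egr2* and *Btg2* lie near it.

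Egr proteins are zinc-finger factors that bind GC-rich sites, and all 3 genes were lower in U2AF1(S34F) mice under both treatments. The drug lowered *Egr1* and *Egr2* in both genotypes and its *Egr3* differences did not pass the test. *Egr1* was at 168, 65.9, 157, 230.0 and 175 CPM in vehicle-treated U2AF1(WT) mice and at 34.4, 22.5, 32.3, 35.9 and 40.5 CPM in sudemycin-treated ones. *Egr1* in U2AF1(S34F) mice was at 28.7, 24.9, 30.4, 13.7 and 34.1 CPM under vehicle and at 6.46, 6.19, 5.90, 11.9 and 5.68 CPM under sudemycin D6. Treated and untreated mice did not overlap in either genotype. Untreated U2AF1(S34F) mice reached into the range of treated U2AF1(WT) mice, and treated U2AF1(S34F) mice lay below all others. *Egr1*, a factor of macrophage differentiation and stem cell quiescence, fell with the drug by a log2 fold change of -2.27 (SE 0.29, FDR 0.00273) in U2AF1(WT) mice and -1.87 (SE 0.27, FDR 0.00392) in U2AF1(S34F) mice. Its genotype difference was -2.61 (SE 0.35, FDR 0.000843) under vehicle, and between the 2 extreme groups it was -4.47 (SE 0.37, FDR 2.75e-05), the largest of any member in any comparison. The interaction for *Egr1* was 0.38 (SE 0.41, FDR 0.901).

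*Egr2* was at 3.80, 1.80, 2.27, 3.04 and 2.34 CPM in vehicle-treated U2AF1(WT) mice and at 1.505, 0.573, 1.03, 1.39 and 1.31 CPM in sudemycin-treated ones. *Egr2* in U2AF1(S34F) mice was at 0.848, 1.12, 1.05, 0.643 and 1.25 CPM under vehicle and at 0.566, 0.438, 0.237, 0.326 and 0.422 CPM under sudemycin D6. Both drug comparisons were without overlap, although each level rests on few reads. *Egr2*, a factor of lymphoid tolerance and myelination, differed with the drug by a log2 fold change of -1.17 (SE 0.28, FDR 0.0576) in U2AF1(WT) mice and -1.24 (SE 0.26, FDR 0.018) in U2AF1(S34F) mice. The former call was lost without any 1 of vehicle-treated mice 1, 3, 4 and 5 or treated mouse 12 (FDR 0.109 to 0.172). *Egr3* had under 10 reads in 1 treated U2AF1(WT) mouse, 2 untreated and 3 treated U2AF1(S34F) mice, of which 2 had 3 reads or fewer. Its genotype differences were -2.12 (SE 0.34, FDR 0.000761) under vehicle and -2.32 (SE 0.54, FDR 0.00851) under sudemycin D6.

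Nr4a proteins are orphan nuclear receptors that act without a known ligand, and all 3 were lower in U2AF1(S34F) mice under both treatments. *Nr4a1* was at 179, 105, 134, 143 and 113 CPM in vehicle-treated U2AF1(WT) mice and at 65.6, 86.9, 122, 106 and 120.3 CPM in sudemycin-treated ones. *Nr4a1* in U2AF1(S34F) mice was at 26.3, 17.3, 22.3, 12.2 and 15.97 CPM under vehicle and at 26.4, 18.3, 15.4, 24.8 and 16.9 CPM under sudemycin D6. The genotypes did not overlap, and treated and untreated mice overlapped in each genotype. *Nr4a1*, which restrains inflammatory monocytes and marks antigen signalling in lymphocytes, differed between genotypes by a log2 fold change of -2.86 (SE 0.22, FDR 1.46e-05) under vehicle and -2.33 (SE 0.19, FDR 1.65e-05) under sudemycin D6. Its drug differences did not pass the test and were -0.43 (SE 0.18, FDR 0.316) and 0.10 (SE 0.21, FDR 0.824). *Nr4a2* was lower with the drug in U2AF1(WT) mice by a log2 fold change of -1.47 (SE 0.32, FDR 0.0385), a call lost without vehicle-treated mouse 1 or treated mouse 12 (FDR 0.103 to 0.116), and its genotype call under the drug was lost without treated U2AF1(WT) mouse 10 (FDR 0.114). *Nr4a3* was lower with the drug in U2AF1(S34F) mice by a log2 fold change of -0.74 (SE 0.23, FDR 0.0787). That call was lost in 8 of 10 fits that left out 1 mouse, all but those without vehicle-treated mice 3 and 7 (FDR 0.105 to 0.161), and in the single fit of all mice (FDR 0.176).

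Dusp proteins are phosphatases that switch MAP kinases off. Under vehicle 3 of 5 were lower in U2AF1(S34F) mice (*Dusp1*, *Dusp2* and *Dusp5*), and under sudemycin D6 also 3 (*Dusp1*, *Dusp2* and *Dusp4*). *Dusp1* was at 749, 446, 986, 999 and 612 CPM in vehicle-treated U2AF1(WT) mice and at 389, 333, 373, 317 and 313 CPM in sudemycin-treated ones. *Dusp1* in U2AF1(S34F) mice was at 252.3, 135, 157, 133 and 189.7 CPM under vehicle and at 159.8, 144, 207, 174 and 238 CPM under sudemycin D6. The U2AF1(WT) groups did not overlap each other, and both lay above all U2AF1(S34F) mice, whose 2 groups overlapped. *Dusp1*, which acts on p38 and JNK in the nucleus, was lower in U2AF1(S34F) mice under vehicle by a log2 fold change of -2.15 (SE 0.26, FDR 0.000266). With the drug it differed by a log2 fold change of -1.14 (SE 0.19, FDR 0.0105) in U2AF1(WT) mice and 0.08 (SE 0.19, FDR 0.849) in U2AF1(S34F) mice. The interaction for *Dusp1*, 1.20 (SE 0.29, FDR 0.247), did not pass the test in edgeR and passed it in DESeq2 (FDR 0.0163) and without vehicle-treated U2AF1(WT) mouse 2 (FDR 0.0776) or vehicle-treated U2AF1(S34F) mouse 1 (FDR 0.0769).

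*Dusp2* was at 24.1, 14.5, 21.0, 18.3 and 16.5 CPM in vehicle-treated U2AF1(WT) mice and at 10.6, 6.36, 7.28, 15.8 and 15.1 CPM in sudemycin-treated ones. *Dusp2* in U2AF1(S34F) mice was at 10.1, 10.9, 4.69, 4.71 and 5.27 CPM under vehicle and at 6.70, 3.96, 4.57, 6.81 and 5.24 CPM under sudemycin D6. The vehicle-treated genotypes did not overlap, and among treated mice the lowest U2AF1(WT) value, of mouse 8, lay within the U2AF1(S34F) range. *Dusp2*, a nuclear phosphatase of activated leukocytes, differed by a log2 fold change of -1.41 (SE 0.27, FDR 0.00297) under vehicle and -1.05 (SE 0.26, FDR 0.0106) under sudemycin D6. *Dusp5* was lower with the drug in U2AF1(S34F) mice by a log2 fold change of -0.48 (SE 0.16, FDR 0.0942). That call was lost in 8 of 10 fits that left out 1 mouse, all but those without vehicle-treated mouse 7 and treated mouse 12 (FDR 0.101 to 0.199), and in the single fit of all mice (FDR 0.3003). *Dusp4* had under 10 reads in 1 treated U2AF1(WT) and 1 untreated U2AF1(S34F) mouse. *Dusp6*, a cytoplasmic phosphatase of ERK, was the 1 member that edgeR called in none of the 5 comparisons of groups, with 51.4 to 98.5 CPM in untreated U2AF1(WT) mice and 75.2 to 114 CPM in all others. Its difference was 0.48 (SE 0.15, FDR 0.157) with the drug in U2AF1(WT) mice, 0.31 (SE 0.15, FDR 0.13) between genotypes under vehicle and 0.30 (SE 0.16, FDR 0.139) between the 2 extreme groups. Without vehicle-treated U2AF1(WT) mouse 1 all 3 passed as higher (FDR 0.0744, 0.0289 and 0.0297), as they did in the single fit of all mice (FDR 0.0361, 0.0686 and 0.0745). DESeq2 called the first higher (FDR 0.0715), and the last also passed without treated U2AF1(S34F) mouse 10 (FDR 0.0938). Between genotypes under sudemycin D6 *Dusp6* passed as lower with mouse number as a block, by a log2 fold change of -0.28 (FDR 0.0862).

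Klf proteins are zinc-finger factors that bind GC boxes. All 4 were lower in U2AF1(S34F) mice under vehicle and 2 (*Klf2* and *Klf6*) under sudemycin D6, and the drug lowered *Klf6* in U2AF1(WT) mice and none in U2AF1(S34F) mice in edgeR, where DESeq2 called *Klf2* lower (FDR 0.0746). *Klf2* was at 273, 192, 311, 485 and 280.0 CPM in vehicle-treated U2AF1(WT) mice and at 145, 319.9, 283, 188 and 217 CPM in sudemycin-treated ones. *Klf2* in U2AF1(S34F) mice was at 69.0, 43.5, 65.97, 63.8 and 56.8 CPM under vehicle and at 51.6, 46.4, 52.4, 49.5 and 42.9 CPM under sudemycin D6. Every U2AF1(WT) mouse was above every U2AF1(S34F) mouse, and the treatments overlapped. *Klf2*, a factor of quiescence and of the flow response in endothelium that also restrains myeloid activation, differed by a log2 fold change of -2.38 (SE 0.23, FDR 7e-05) under vehicle and -2.28 (SE 0.19, FDR 1.51e-05) under sudemycin D6. Its drug difference in U2AF1(S34F) mice was -0.31 (SE 0.11, FDR 0.106). *Klf4*, a factor of monocyte differentiation, was lower under vehicle by a log2 fold change of -0.87 (SE 0.21, FDR 0.0109), while under sudemycin D6 its difference was 0.03 (SE 0.15, FDR 0.914). *Klf6* was lower with the drug in U2AF1(WT) mice by a log2 fold change of -0.59 (SE 0.12, FDR 0.029). *Klf10* had the smallest called difference, -0.25 (SE 0.09, FDR 0.0488) under vehicle, lost without vehicle-treated U2AF1(WT) mouse 3 or U2AF1(S34F) mouse 5 or 7 (FDR 0.105 to 0.113).

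The feedback inhibitors act on the messages or on NF-kB: Zfp36 proteins bind AU-rich messages and speed their decay, *Btg2* promotes the removal of poly(A) tails, and *Tnfaip3* and *Nfkbia* inhibit NF-kB. All 5 were lower in U2AF1(S34F) mice under vehicle and 4 under sudemycin D6, the exception being *Nfkbia*. *Zfp36* was at 596, 418, 591, 857 and 536 CPM in vehicle-treated U2AF1(WT) mice and at 387, 479.6, 459, 406 and 429 CPM in sudemycin-treated ones. *Zfp36* in U2AF1(S34F) mice was at 172, 121, 174, 152 and 181 CPM under vehicle and at 152, 144, 143, 140.1 and 144 CPM under sudemycin D6. The genotypes did not overlap, treated and untreated mice overlapped in each, and the treated U2AF1(S34F) mice were the most alike of any group of any member at or above 1 CPM, with a coefficient of variation of 3.09%. *Zfp36* differed between genotypes by a log2 fold change of -1.93 (SE 0.18, FDR 1.89e-05) under vehicle and -1.62 (SE 0.08, FDR 1.04e-07) under sudemycin D6. Its drug differences, -0.48 (SE 0.16, FDR 0.191) and -0.16 (SE 0.09, FDR 0.336), did not pass the test.

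*Btg2* was at 675, 396, 697, 867 and 774 CPM in vehicle-treated U2AF1(WT) mice and at 369.8, 375, 427, 367 and 399 CPM in sudemycin-treated ones. *Btg2* in U2AF1(S34F) mice was at 324, 270.2, 273, 229 and 262 CPM under vehicle and at 179.6, 160.2, 137, 153 and 155 CPM under sudemycin D6. Treated and untreated U2AF1(S34F) mice did not overlap, in U2AF1(WT) mice untreated mouse 2 lay within the treated range, and all U2AF1(S34F) mice lay below all U2AF1(WT) mice. *Btg2* fell with the drug by a log2 fold change of -0.82 (SE 0.17, FDR 0.0307) in U2AF1(WT) mice and by a log2 fold change of -0.80 (SE 0.09, FDR 0.00113) in U2AF1(S34F) mice, with an interaction of -0.0015 (SE 0.19, FDR 0.999). *Tnfaip3* was at 107, 142, 95.4, 73.2 and 84.3 CPM in vehicle-treated U2AF1(WT) mice and at 47.4, 61.2, 66.5, 54.1 and 51.3 CPM in sudemycin-treated ones. *Tnfaip3* in U2AF1(S34F) mice was at 33.0, 31.7, 36.9, 31.6 and 29.2 CPM under vehicle and at 30.3, 26.8, 29.7, 26.1 and 29.1 CPM under sudemycin D6. Untreated U2AF1(WT) mice lay above treated ones, and all U2AF1(S34F) mice lay below both. *Tnfaip3* differed between genotypes by a log2 fold change of -1.64 (SE 0.15, FDR 1.41e-05) under vehicle, and with the drug in U2AF1(WT) mice by a log2 fold change of -0.84 (SE 0.16, FDR 0.0166).

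*Zfp36l1* was lower in U2AF1(S34F) mice under vehicle by a log2 fold change of -1.03 (SE 0.12, FDR 0.000114) and was the 1 member that edgeR called higher with the drug, by a log2 fold change of 0.40 (SE 0.12, FDR 0.0647) in U2AF1(S34F) mice. That call was lost without vehicle-treated mouse 3 or 11 or treated mouse 2, 6 or 10 (FDR 0.104 to 0.143), at an FDR of 5% and in the single fit of all mice (FDR 0.121). Exons of Gm17591 on the opposite strand overlap 56% of its exon length. *Nfkbia* was lower in U2AF1(S34F) mice under vehicle by a log2 fold change of -0.87 (SE 0.11, FDR 0.000146), and its genotype difference under sudemycin D6 was -0.20 (SE 0.17, FDR 0.412). With the drug in U2AF1(S34F) mice it showed 0.40 (SE 0.16, FDR 0.156) in edgeR, and DESeq2 called it higher by a log2 fold change of 0.40 (FDR 0.0842). Its call between the 2 extreme groups was lost without vehicle-treated U2AF1(WT) mouse 2, 3 or 4 or treated U2AF1(S34F) mouse 2 or 10 (FDR 0.1004 to 0.117).

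Ier genes encode small early-response proteins of less settled function, and all 3 were lower in U2AF1(S34F) mice under both treatments. The drug lowered all 3 in U2AF1(S34F) mice and *Ier3* in U2AF1(WT) mice. *Ier3* was at 49.9, 47.6, 40.7, 51.8 and 47.1 CPM in vehicle-treated U2AF1(WT) mice and at 28.5, 29.7, 37.3, 32.6 and 35.2 CPM in sudemycin-treated ones. *Ier3* in U2AF1(S34F) mice was at 31.7, 19.97, 23.4, 17.4 and 18.1 CPM under vehicle and at 15.7, 13.3, 14.1, 14.9 and 15.4 CPM under sudemycin D6. No groups of the same genotype or the same treatment overlapped, and untreated U2AF1(S34F) mouse 1 lay within the range of treated U2AF1(WT) mice. *Ier3*, a regulator of survival, fell with the drug by a log2 fold change of -0.54 (SE 0.10, FDR 0.0136) and -0.60 (SE 0.14, FDR 0.0336) in U2AF1(WT) and U2AF1(S34F) mice, and the 2 extreme groups differed by a log2 fold change of -1.70 (SE 0.08, FDR 6.96e-09), the smallest FDR of any member. *Ier2* was at 275, 176, 279.7, 404 and 280.1 CPM in vehicle-treated U2AF1(WT) mice and at 179, 212, 247, 202 and 228 CPM in sudemycin-treated ones. *Ier2* in U2AF1(S34F) mice was at 156, 157, 145, 119.6 and 144 CPM under vehicle and at 105, 102, 97.8, 90.5 and 90.0 CPM under sudemycin D6. The U2AF1(S34F) groups did not overlap each other, and in U2AF1(WT) mice the lowest untreated value, of mouse 2, lay below all treated ones. *Ier2* was lower with the drug in U2AF1(S34F) mice by a log2 fold change of -0.58 (SE 0.08, FDR 0.00215), and between genotypes under vehicle by a log2 fold change of -0.99 (SE 0.18, FDR 0.00167). *Ier5* was lower with the drug in U2AF1(S34F) mice by a log2 fold change of -0.56 (SE 0.09, FDR 0.00502).

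The 6 growth and arrest genes differed among themselves. Under vehicle 5 were lower in U2AF1(S34F) mice, the exception being *Gadd45b*, and under sudemycin D6 also 5, the exception being *Myc*. *Plk3* was at 115, 59.8, 111, 123 and 82.5 CPM in vehicle-treated U2AF1(WT) mice and at 37.2, 33.2, 47.7, 48.6 and 39.6 CPM in sudemycin-treated ones. *Plk3* in U2AF1(S34F) mice was at 27.3, 17.5, 18.2, 13.4 and 17.2 CPM under vehicle and at 15.8, 10.5, 15.9, 13.6 and 15.4 CPM under sudemycin D6. Untreated U2AF1(WT) mice lay above treated ones, and both above all U2AF1(S34F) mice. *Plk3*, a stress-responsive polo-like kinase, differed by a log2 fold change of -2.41 (SE 0.24, FDR 9.79e-05) between genotypes under vehicle and by a log2 fold change of -1.25 (SE 0.19, FDR 0.0045) with the drug in U2AF1(WT) mice. *Plk2* was at 13.1, 10.3, 12.5, 8.24 and 8.36 CPM in vehicle-treated U2AF1(WT) mice and at 3.91, 4.62, 5.99, 3.67 and 3.16 CPM in sudemycin-treated ones. *Plk2* in U2AF1(S34F) mice was at 4.58, 2.91, 4.39, 3.91 and 3.66 CPM under vehicle and at 3.40, 2.25, 3.09, 3.22 and 3.01 CPM under sudemycin D6. Untreated U2AF1(WT) mice lay above all others, and treated U2AF1(WT) mice overlapped both U2AF1(S34F) groups. *Plk2*, a related kinase, fell with the drug in U2AF1(WT) mice by a log2 fold change of -1.29 (SE 0.20, FDR 0.00465), and its genotype call under the drug was lost without treated U2AF1(WT) mouse 9 or treated U2AF1(S34F) mouse 6 (FDR 0.107 to 0.113).

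*Rhob* was at 253, 184, 298, 396 and 302 CPM in vehicle-treated U2AF1(WT) mice and at 152, 254, 265, 185 and 165 CPM in sudemycin-treated ones. *Rhob* in U2AF1(S34F) mice was at 122, 101, 106, 114 and 106 CPM under vehicle and at 73.4, 68.6, 88.7, 71.0 and 78.8 CPM under sudemycin D6. The treated and untreated U2AF1(S34F) mice did not overlap, and both lay below all U2AF1(WT) mice. *Rhob*, an inducible small GTPase of endosomes, was lower with the drug in U2AF1(S34F) mice by a log2 fold change of -0.54 (SE 0.08, FDR 0.00215) and between genotypes under vehicle by a log2 fold change of -1.40 (SE 0.16, FDR 0.000126). *Myc* was at 37.1, 18.5, 29.8, 37.1 and 25.5 CPM in vehicle-treated U2AF1(WT) mice and at 31.0, 18.0, 11.2, 36.7 and 31.8 CPM in sudemycin-treated ones. *Myc* in U2AF1(S34F) mice was at 20.7, 22.2, 18.2, 19.4 and 21.8 CPM under vehicle and at 22.3, 14.5, 23.3, 25.6 and 19.7 CPM under sudemycin D6. All 4 groups overlapped one another. *Myc*, a driver of growth and division, differed between genotypes by a log2 fold change of -0.55 (SE 0.17, FDR 0.0244) under vehicle, while neither drug difference passed the test. That genotype call was lost in the single fit of all mice (FDR 0.107). The *Myc* call between the extreme groups was lost without vehicle-treated U2AF1(WT) mouse 1 or 4 or treated U2AF1(S34F) mouse 6 or 12 (FDR 0.1005 to 0.129). It was also lost in the single fit of all mice (FDR 0.116). *Gadd45b*, a stress sensor upstream of p38 and JNK, was lower in U2AF1(S34F) than in U2AF1(WT) mice under sudemycin D6 by a log2 fold change of -0.42 (SE 0.08, FDR 0.00392). Its call between the extreme groups was lost in 8 of 10 fits that left out 1 mouse, all but those without vehicle-treated mice 2 and 3 (FDR 0.108 to 0.251). *Csrnp1*, a nuclear protein induced by AXIN1, was lower in U2AF1(S34F) mice under vehicle by a log2 fold change of -1.63 (SE 0.17, FDR 5.83e-05).

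Among 35 further early-response genes listed by symbol, 33 were matched to a gene, and *Dusp8* and *Tob2* were not analysed here. Under vehicle, 24 of 32 tested were lower and 1 (*Sgk1*) higher in U2AF1(S34F) mice, with a median log2 fold change of -0.91, against 19.8% of all genes lower and 19.7% higher. Under sudemycin D6 20 of 31 were lower and 0 higher in edgeR, also 0 at an unadjusted p under 0.05, against 19.6% and 17.2% of all genes. The drug lowered 8 of 32 and raised 0 in U2AF1(WT) mice in edgeR, again 0 at an unadjusted p under 0.05, against 1.89% of all genes lower and 1.18% higher. In U2AF1(S34F) mice it lowered 2 and raised 4 of 31, against 5.85% and 4.94%. *Fosl1*, an AP-1 gene, was lower in U2AF1(S34F) mice under vehicle by a log2 fold change of -2.96 (SE 0.32, FDR 7e-05) and with the drug in U2AF1(WT) mice by a log2 fold change of -1.78 (SE 0.36, FDR 0.0264). *Rgs1*, a brake on G protein signalling, was lower with the drug in U2AF1(WT) mice by a log2 fold change of -1.82 (SE 0.16, FDR 7.24e-05), and *Nfkbiz*, a nuclear NF-kB cofactor, by a log2 fold change of -0.94 (SE 0.11, FDR 0.00103). *Per1*, a clock gene with early-response kinetics, fell with the drug by a log2 fold change of -0.98 (SE 0.23, FDR 0.0576) in U2AF1(WT) mice and rose by a log2 fold change of 0.74 (SE 0.17, FDR 0.0273) in U2AF1(S34F) mice, and its interaction was 1.71 (SE 0.31, FDR 0.113). *Cdkn1a*, the cell cycle inhibitor p21, rose with the drug in U2AF1(S34F) mice by a log2 fold change of 0.79 (SE 0.17, FDR 0.0204), as did *Bcl3*, an atypical IkB protein, by a log2 fold change of 0.94 (SE 0.12, FDR 0.00158). The genes named from these further lists were chosen after their values were seen.

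Lists of the signalling pathways upstream were examined in the same way. Their counts stand beside 19.8% of all genes lower and 19.7% higher in U2AF1(S34F) mice under vehicle, and 19.6% lower and 17.2% higher under sudemycin D6. The drug lowered 1.89% and raised 1.18% of all genes in U2AF1(WT) mice, while in U2AF1(S34F) mice it lowered 5.85% and raised 4.94%. Of 18 MAP kinase cascade genes, 5 were lower and 1 higher in U2AF1(S34F) mice under vehicle (median -0.12), and 6 lower and 2 higher under sudemycin D6. The drug lowered 0 (1 at an unadjusted p under 0.05) and raised 1 (*Mapk7*) in U2AF1(WT) mice, and lowered 1 and raised 1 in U2AF1(S34F) mice. Of 12 genes of serum response factor, its ternary complex partners and CREB, 6 were lower and 2 higher under vehicle (median -0.27), 7 lower and 1 higher under sudemycin D6, and 0 changed with the drug in either genotype in edgeR, with 1 in U2AF1(WT) and 3 in U2AF1(S34F) mice at an unadjusted p under 0.05. *Srf* itself differed by a log2 fold change of -0.11 (SE 0.09, FDR 0.359) under vehicle, and *Creb1* was higher by a log2 fold change of 0.36 (SE 0.08, FDR 0.00512), whereas its coactivators *Crtc2* and *Crtc3* were lower by a log2 fold change of -0.85 (SE 0.18, FDR 0.00469) and -0.81 (SE 0.13, FDR 0.000578). Of 8 NF-kB genes, 5 were lower and 0 higher under vehicle (median -0.47) and 5 lower and 0 higher under sudemycin D6 in edgeR, with 0 higher in either at an unadjusted p under 0.05.

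Marker lists of other cells and the makeup of the libraries moved with genotype in part. The 9 neutrophil markers summed to 64722 to 71801 CPM in untreated U2AF1(WT) mice and 84366 to 142000.0 CPM in untreated U2AF1(S34F) mice (exact permutation test, two-sided, p = 0.00794, the smallest this design can give, adjusted p = 0.106 over 40 tests). Of the 9, 4 were higher in edgeR under vehicle and 0 lower, also 0 at an unadjusted p under 0.05, against 19.7% of all genes higher. Under sudemycin D6 they summed to 59127 to 101564 and 74725 to 123224 CPM (exact permutation p = 0.0635, adjusted 0.231). The share of reads on the 10 highest genes was 13.01% in U2AF1(WT) and 15.8% in U2AF1(S34F) mice under vehicle (exact permutation p = 0.00794, adjusted 0.106). The 7 monocyte and macrophage markers summed to 1383 to 2166 CPM and 981 to 1871 CPM under vehicle (exact permutation p = 0.302). In edgeR 4 of the 7 were lower under vehicle (*Csf1r*, *Cx3cr1*, *Emr1* and *Cd68*), 3 of them without overlap, and 0 higher, also 0 at an unadjusted p under 0.05, with a median log2 fold change of -0.49, against 19.8% of all genes lower. With the drug they summed to 1044 to 1506 CPM in U2AF1(WT) mice (exact permutation p = 0.0397, adjusted 0.176) and 1513 to 2299 CPM in U2AF1(S34F) mice (p = 0.0556, exact permutation, adjusted 0.222). The treated genotypes did not overlap in this sum, which was 1.52 times as high in U2AF1(S34F) mice (exact permutation p = 0.00794, adjusted 0.106), and edgeR called 3 of the 7 higher (*Ccr2*, *F13a1* and *Cd68*) and 1 lower (*Csf1r*), against 17.2% and 19.6% of all genes. In edgeR's interaction test 0 of these 7 markers were called, and 7 had a higher interaction at an unadjusted p under 0.05. The 6 B cell markers summed to 31.3 to 109 CPM and 12.6 to 108 CPM under vehicle, and 5 of 6 were lower in U2AF1(S34F) mice under sudemycin D6 in edgeR. Mitochondrially encoded genes took 3.36% and 3.19% of reads under vehicle. The part of these measures in the levels of the 37 genes was not tested.

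The mice of a group differed more in these genes than in most. The median coefficient of variation of the 33 members at 1 CPM or more was 25.0% in vehicle-treated U2AF1(WT) mice against 12.8% for all genes. It was 16.3% against 15.1% in treated U2AF1(WT), 15.5% against 10.8% in untreated U2AF1(S34F) and 14.7% against 9.65% in treated U2AF1(S34F) mice. In vehicle-treated U2AF1(WT), mouse 2 was lowest for 24 and mouse 4 highest for 22 members. In vehicle-treated U2AF1(S34F), mouse 7 was lowest for 22 and mouse 1 highest for 20, and in treated U2AF1(S34F) mouse 2 was highest for 19. The summed level of the lowest vehicle-treated U2AF1(WT) mouse, 5191 CPM, was still above that of the highest U2AF1(S34F) mouse, 3268 CPM.

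Reads across splice junctions were compared with all reads of a gene, since an unspliced transcript gives gene reads without junction reads. With limma on the log2 ratio, *Dusp1* was the 1 member of 28 tested that was called with the drug in U2AF1(WT) mice, by a log2 difference of -0.29 (SE 0.057, FDR 0.089), against 0.0526% of all genes lower. In either direction, 9 of the 28 members and 761 of 11405 genes had an unadjusted p under 0.05. The *Dusp1* call was lost without any 1 of vehicle-treated mice 1, 2 and 3 and treated mice 6, 8, 10 and 12. Its share was 28.7, 27.7, 22.8, 26.4 and 22.3 junction reads per 100 gene reads in vehicle-treated and 21.1, 22.0, 23.8, 20.8 and 21.7 in treated mice, which overlapped. In U2AF1(S34F) mice 0 of 24 members were called with limma, the 1 tool run on these ratios, where 0.00878% of genes were lower. There 5 of the 24 members and 621 of 11396 genes had an unadjusted p under 0.05 in either direction. Between genotypes, a comparison added after the values were seen, 5 of 28 members had a lower and 4 a higher share under vehicle (6.41% and 7.92% of genes), and 4 of 26 lower and 8 higher under sudemycin D6 (8.32% and 9.94%). The lower members under sudemycin D6 include *Fosb* and *Egr1*, with 6 to 49 and 3 to 11 junction reads in each U2AF1(S34F) mouse. Both passed the filter, a mean of at least 20 reads over both groups, through the U2AF1(WT) mice. Their calls there therefore support no conclusion.

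The share of *Fosb* was 17.0, 13.5, 10.4, 12.7 and 11.5 in vehicle-treated U2AF1(WT) mice and 2.50, 4.67, 4.61, 4.61 and 3.37 in vehicle-treated U2AF1(S34F) mice. The groups did not overlap, and limma gave a difference of -1.74 (SE 0.20, FDR 0.000162). *Fosb* had only 12 to 23 junction reads in each of these U2AF1(S34F) mice. It passed the filter, a mean of at least 20 reads over both groups, through the U2AF1(WT) mice. The share of *Egr1* was 5.19, 4.33, 4.37, 8.31 and 4.31 against 1.10, 0.926, 1.29, 2.60 and 1.83, a difference of -1.84 (SE 0.26, FDR 0.000896). *Egr1* had 14 to 35 junction reads in each of these U2AF1(S34F) mice, so its share there also rests on few reads. No conclusion is drawn for *Fosb*, since it passed the filter only through the group where it is high. For *Egr1*, on these few reads, junction reads were lower in U2AF1(S34F) mice by more than gene reads were. *Atf3* went the other way, with 20.8, 19.2, 14.7, 16.9 and 17.5 against 40.3, 45.3, 27.6, 51.7 and 34.7, a difference of 1.10 (SE 0.14, FDR 0.00047), also without overlap. *Fos* differed by a log2 ratio of -0.17 (SE 0.047, FDR 0.0357), and *Tnfaip3* was higher by 0.79 (SE 0.14, FDR 0.0059). With the drug in U2AF1(WT) mice the share of *Fosb* differed by -0.66 (SE 0.16, FDR 0.197), which did not pass the test. *Junb* and *Ier2*, which have 1 exon and no junction reads, could not be compared in this way.

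**Figure D5:**
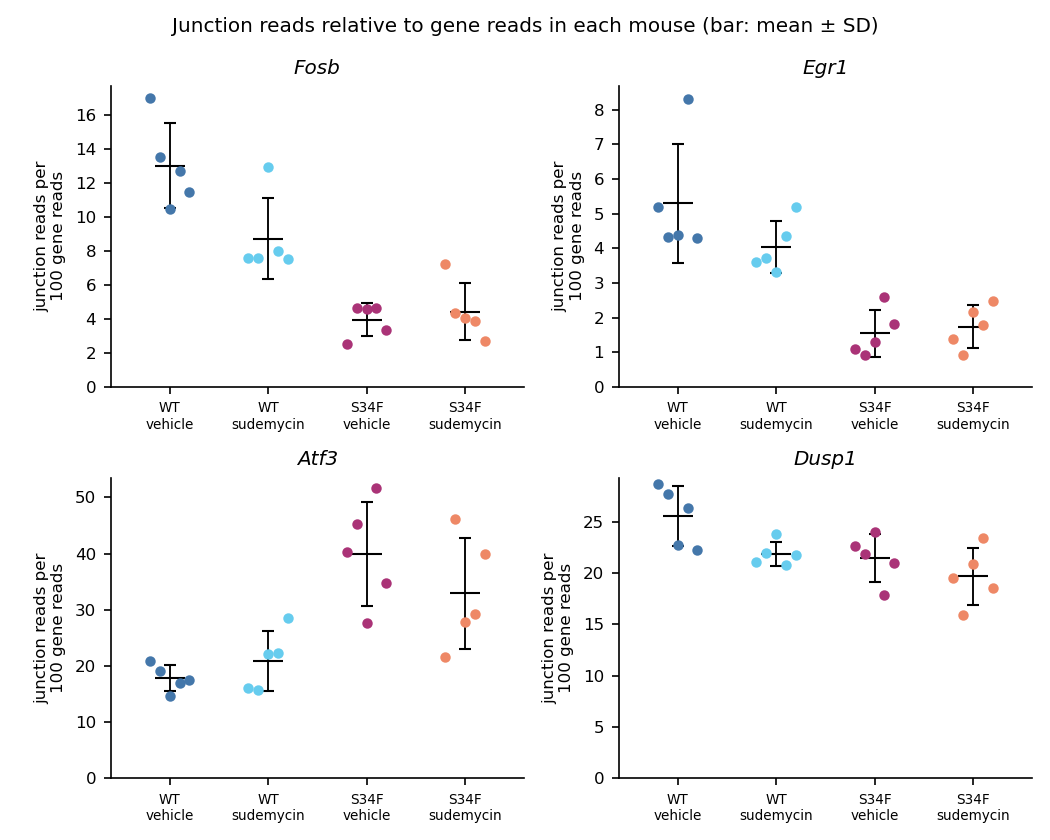
Junction reads per 100 gene reads of *Fosb*, *Egr1*, *Atf3* and *Dusp1* in each mouse, with 5 mice per group and bars for mean ± SD. In vehicle-treated mice *Fosb* and *Egr1* are lower and *Atf3* higher in U2AF1(S34F), without overlap, and *Dusp1* overlaps between the groups.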

How the data were processed

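RNA was extracted from bone marrow of 20 mice, and total RNA libraries were made with a stranded kit after removal of ribosomal RNA. Per the labels and the study's methods, the authors aligned reads to mm9 with TopHat 2.0.8 and deposited raw counts for 37620 genes and 554616 splice junctions. The program that counted gene reads and its strand setting are not given in the sources used here. Groups came from the sample titles. The 37 members and all gene lists were chosen with earlier results of these data known. Counts were tested with edgeR 4.0.16 (R 4.3.3; filterByExpr, TMM, robust quasi-likelihood, prior count 2) at FDR<10% after Benjamini-Hochberg adjustment over all genes tested. Each pair of groups was fitted on its own 10 mice, and the interaction and covariate fits used all 20. Log2 fold changes are sudemycin D6 over vehicle or U2AF1(S34F) over U2AF1(WT). CPM used TMM factors over 20 mice, and levels per kb used exon lengths of the mm9 annotation. Junction reads per gene read were tested with limma 3.58.1 on log2 ratios (0.5 read added, mean of at least 20 reads). Summed marker levels were compared by exact two-sided permutation over 252 splits. Alternatives were DESeq2 1.42.0, other size factors, filters and thresholds, a single fit of all 20 mice, a replicate block, and fits without 1 mouse. Scripts were tested on simulated data. Genes shown mouse by mouse are the 14 with the smallest FDR in any comparison, with *Fos*, *Jun*, *Dusp1*, *Ier2* and *Myc*, and *Fosb*, which was added after its values were seen. The labels do not tie mice to donor pools, so mice of a group may share donors, and p-values measure the spread between these mice.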

Additional observations from a re-analysis of the deposited data

Results flagged for a closer look

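Of 148 groups of 5 mice examined over the 37 members, 4 held a mouse whose gap to its nearest neighbour exceeded Dixon's critical value of 0.71 times the range, where chance alone gives about 1 in 20 (7.4 of 148). *Fosl2* was at 165.75 CPM in vehicle-treated U2AF1(S34F) mouse 3, with the nearest mouse at 207 CPM. *Atf3* was at 96.956 CPM in vehicle-treated U2AF1(WT) mouse 1, with the nearest at 66.7 CPM. *Egr1* was at 11.919 CPM in sudemycin-treated U2AF1(S34F) mouse 10, with the nearest at 6.46 CPM. *Nr4a2* was at 1.1241 CPM in vehicle-treated U2AF1(S34F) mouse 1, with the nearest at 0.598 CPM.

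The drug difference of *Atf3* differed between the genotypes by a log2 difference of 2.38 in edgeR's interaction test.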

How the results depend on the processing

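No result changed its direction past a threshold in any alternative run. With DESeq2, the drug comparison in U2AF1(WT) mice had 1 member higher, that in U2AF1(S34F) mice 2 higher (*Zfp36l1* and *Nfkbia*), and the interaction 4 higher. In one model of all 20 mice, 1 member was higher with the drug in U2AF1(WT) mice, between genotypes under vehicle and between the extreme groups, and 7 were lower and 0 higher with the drug in U2AF1(S34F) mice. At an FDR of 5%, 0 members were higher with the drug in U2AF1(S34F) mice and 0 with genotype as a covariate. The share of junction reads under sudemycin D6 was lower in U2AF1(S34F) mice for 2 members with 5 reads added and for 2 with a mean of at least 100 reads. The latter filter left 23 members tested, without *Fosb* and *Egr1*, which have too few junction reads for it. Why the count moved with 5 reads added was not tested. These junction alternatives between genotypes were chosen after seeing the data.

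Leaving out each mouse in turn, members called lower ranged from 11 to 21 with the drug in U2AF1(WT) mice, 9 to 13 in U2AF1(S34F) mice, 33 to 35 between genotypes under vehicle, 29 to 32 under sudemycin D6, 32 to 34 between the extreme groups and 21 to 26 with genotype as a covariate. Members called higher ranged from 0 to 1, 0 to 2, 0 to 1, 0 to 0, 0 to 1 and 0 to 1 in the same order, and from 1 to 2 for the interaction. Junction shares called lower with the drug in U2AF1(WT) mice ranged from 0 to 2 members, and those called higher between genotypes under sudemycin D6 from 5 to 9.

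Mice with the same number did not all deviate together across genotypes (correlations 0.0662, 0.134 and -0.0483 under vehicle, and 0.0738, 0.116, 0.21 and -0.111 under sudemycin D6). These correlations are too few to tell whether the numbers pair the mice. With the replicate block, 33 members were lower and 0 higher between genotypes under vehicle, 30 lower and 0 higher under sudemycin D6, and 1 had a higher interaction. Few reads limit *Egr3*, *Egr2* and *Dusp4*, and also *Maff*, *Nr4a3* and *Nr4a2*. In treated U2AF1(S34F) mice *Maff* had 11 to 27 reads, *Nr4a3* 16 to 25 and *Nr4a2* 21 to 51.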
